A study of Homo sapiens and Mus musculus and synthetic construct with 31 samples.

Results

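The massively parallel reporter assay (MPRA) library held 4 tiles of the cytomegalovirus (CMV) promoter as positive controls. They were chosen here as all sequences that the index of the library marks as controls, which gave 4 of 15156 sequences and 240 of 181026 barcodes. Each tile was 144 bp long and was designed with 60 barcodes, whereas TSS sequences had 13 and random sequences 3. The tiles are named CMV-1 to CMV-4 here, in the order in which the last 30 bases of one match the first 30 bases of the next, so that together they covered 486 bp. Neighbouring tiles therefore shared 30 bases, and the 60 barcodes of a tile shared its whole sequence, so neither tiles nor barcodes are replicates of a condition.

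The CMV immediate-early promoter and its upstream enhancer drive the first viral genes after infection and are widely used to express transgenes in cultured mammalian cells. The enhancer is made of short repeats that bind host factors, among them cAMP response elements (CREs) for CREB and ATF proteins and kappa B sites for NF-kappa B. It is strong in many cell types, and it is also known for weak or unstable expression in some pluripotent cells.

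In this assay each plasmid carries 1 tile and 1 barcode in the reporter transcript, so that the ratio of RNA to plasmid DNA reads of a barcode measures how much transcript the tile gave. Human ESCs (hESCs) were the HUES64 line, kept without feeders in mTeSR1, and 2500000 cells received 25 µg of plasmid with 60 µL of LipofectStem. Mouse ESCs (mESCs) came from blastocysts and were kept without feeders in 2i medium, and 10000000 cells received 40 µg with 100 µL of Lipofectamine 2000. Each cell type was sampled at 3 passages, which are the replicates. hESCs were transfected 3 times per passage, giving 9 RNA libraries, and mESCs 1 time per passage, giving 3. All cells received the same library, and 1 plasmid DNA library served both cell types. hESCs were transfected as adherent cells and mESCs in suspension. hESCs represent 1 line, and species, line, medium, reagent, plasmid dose and this format changed together. Their parts in any difference between hESCs and mESCs cannot be told apart. All passages of a cell type came from the same source, so p-values measure the spread between passages. The methods describe cloning with and without a minimal promoter, and which of these the deposited counts come from is not given in the sources used here.

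Of the 240 CMV barcodes, 236 had at least 10 plasmid DNA counts and were kept, 57 of CMV-1, 60 of CMV-2, 59 of CMV-3 and 60 of CMV-4. Of the 4 left out, 3 had 0 DNA counts (2 of CMV-1 and 1 of CMV-3) and 1 of CMV-1 had 8. The kept barcode nearest to the limit had 12, in CMV-2. DNA counts summed over the kept barcodes were 45200 for CMV-1, 46010 for CMV-2, 46604 for CMV-3 and 32936 for CMV-4. RNA counts per passage ranged from 14383 (CMV-2, mESC passage 1) to 468333 (CMV-1, hESC passage 1). Because reads carried no molecular identifiers, such counts exceed the number of molecules.

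To let single reporters be followed, the barcodes with the highest and the lowest mean log2 activity over the 6 passages are shown for each tile. Each is 11 bases long and is written 5′ to 3′ as the index gives it, in lower case throughout because no base was singled out.
CMV-1, highest: cgtcgacacca
CMV-1, lowest: acataggtaaa
CMV-2, highest: tattttcgcat
CMV-2, lowest: ccgatcgtctc
CMV-3, highest: ttcgggcatgc
CMV-3, lowest: tatctagcggg
CMV-4, highest: tagcgttaatg
CMV-4, lowest: cgatctctcaa

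The whole assay covered 131913506 reads of plasmid DNA, 72917827 to 126600144 reads per hESC library and 101861249 to 138483196 per mESC library. The transfected cells expressed the pluripotency genes in RNA-seq of the same passages, where 5 of 5 markers were over 1 TPM (a share of all transcripts, corrected for gene length) in every passage of both cell types. POU5F1, with its mouse counterpart, was at 109 ± 17 TPM in hESCs and 1030 ± 67 in mESCs, SOX2 at 272 ± 51 and 510 ± 32, and NANOG at 78.7 ± 0.36 and 972 ± 122 (SD, n = 3 passages). LIN28A and SALL4 went the other way, at 2233 ± 222 and 62.8 ± 9.2 for LIN28A and 152 ± 13 and 118 ± 11 for SALL4. Markers of naive mouse ESCs were read too. KLF4 was at 2.67 ± 0.63 TPM in hESCs and 307 ± 30 in mESCs, and ESRRB at 1.54 ± 0.95 and 416 ± 26. ZFP42 was at 205 ± 13 and 184 ± 18. TFCP2L1 was at 4.95 ± 0.35 in hESCs, and its name had no match in mESCs. The 3 libraries of hESC passage 1 stood apart. Of all kept barcodes, 13.3% to 13.9% had no RNA read in these 3 libraries, against 4.98% to 9.20% in the other 9, and the random sequences had an SD of 1.33 to 1.70 (log2) against 0.65 to 1.02. The comparisons of tiles, cell types and barcodes are therefore also given without passage 1.

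First, the activity of each tile was compared with that of the random sequences. Activity is the RNA count summed over the barcodes of a tile, divided by the summed DNA count and by the same ratio of the median random sequence in that library, so that 1 is the level of the median random sequence. The order of the tiles was CMV-1, CMV-4, CMV-3 and CMV-2 from highest to lowest in all 12 RNA libraries. The first and the last tile of this order were neighbours on the promoter and shared 30 bases.

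CMV-1 had an activity of 9.93, 10.8 and 11.5 in hESC passages 1, 2 and 3 and of 10.0, 9.59 and 14.2 in mESC passages 1, 2 and 3. The groups overlapped, and mESC passage 3 held the highest value. Over the 9 hESC libraries the lowest value was 9.97, the median 11.1 and the highest 12.5. The value of 9.93 for passage 1 lies below all 3 of its transfections, since the random sequences were ranked anew in the summed counts. In every hESC passage 1 of the 1604 random sequences was above CMV-1, and in the mESC passages 0 were. It was above 95.5% of the 11861 TSS sequences in each hESC passage and above 95.6% to 96.3% in mESCs.

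CMV-4, at the other end of the stretch, had an activity of 5.38, 6.27 and 7.22 in the hESC passages and of 5.12, 4.78 and 6.27 in the mESC passages. The 9 hESC libraries ran from 5.60 over a median of 6.43 to 7.59. At most 9 random sequences in a hESC passage and 5 in a mESC passage were above it, and it was above 88.0% to 90.3% of the TSS sequences over both cell types.

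CMV-3 had an activity of 2.68, 3.16 and 3.48 in the hESC passages and of 1.93, 1.75 and 1.65 in the mESC passages. All 3 hESC values were above all 3 mESC values. The 9 hESC libraries ran from 2.71 over a median of 3.25 to 3.64, each above the highest mESC value. The tile was above 96.4% to 98.4% of the random sequences in hESCs and above 86.8% to 92.9% in mESCs. Between 26 and 58 random sequences exceeded it in a hESC passage, and between 114 and 211 in a mESC passage.

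CMV-2 had an activity of 1.00, 0.888 and 0.862 in the hESC passages and of 0.914, 1.08 and 0.980 in the mESC passages. The 9 hESC libraries ran from 0.855 over a median of 0.912 to 1.17, and the 3 libraries of passage 1 held the highest values (0.993 to 1.17). The tile stood within the random sequences, above 32.9% to 50.3% of them in hESCs and above 43.5% to 59.7% in mESCs.

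In a fit of edgeR's quasi-likelihood model over all 13469 sequences, 3 of the 4 tiles were above the median random sequence in each cell type (adjusted p under 0.05, Benjamini-Hochberg). Of all sequences tested, 53.7% were called above it in hESCs and 48.1% in mESCs. The log2 activity of CMV-1 was 3.43 in hESCs (SE 0.10, adjusted p = 8.03e-23) and 3.49 in mESCs (SE 0.10, adjusted p = 4.86e-23). That of CMV-4 was 2.65 (SE 0.10, adjusted p = 2.19e-20) and 2.43 (SE 0.10, adjusted p = 5.81e-19). For CMV-3 the values were 1.64 (SE 0.10, adjusted p = 6.14e-15) and 0.83 (SE 0.11, adjusted p = 1.63e-07). CMV-2 was not called in either cell type, at -0.12 in hESCs (95% interval -0.32 to 0.08, adjusted p = 0.291) and -0.01 in mESCs (-0.21 to 0.18, adjusted p = 0.922). Without hESC passage 1 the hESC values were 3.48, 2.75, 1.73 and -0.19 for CMV-1, CMV-4, CMV-3 and CMV-2, with the same calls. Each SE was derived as the absolute log2 value over the square root of its F statistic, which understates the error of values far from 0. For CMV-1 the difference between the cell types in the same fit had an SE of 0.22, so the 0.10 of its activities is too small. The SEs and intervals hold neither the error of the single DNA library nor the spread among the random sequences. Of the random sequences, 16.1% were themselves called above their median in hESCs and 15.0% in mESCs.

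The spread between transfections was small beside the distance between tiles. The pooled SD of log2 activity between transfections of a hESC passage was 0.08 for CMV-1, CMV-2 and CMV-3 and 0.06 for CMV-4. Between the hESC passages, each with its transfections summed, the SD was 0.11 for CMV-1, 0.12 for CMV-2, 0.19 for CMV-3 and 0.21 for CMV-4. Between passage means of transfections scaled one by one it was 0.05, 0.17, 0.14 and 0.16 for CMV-1 to CMV-4. For CMV-1 this was below the SD between transfections. In mESCs, where passages and transfections cannot be told apart, the SD was 0.31 for CMV-1, 0.12 for CMV-2, 0.11 for CMV-3 and 0.20 for CMV-4. The 0.31 of CMV-1 is set by passage 3, without which its mESC mean was 9.82 in place of 11.3.

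Next, pairs of tiles were compared within a library, which takes the scaling to random sequences out of the comparison. CMV-1 exceeded CMV-2 by a log2 ratio of 3.55 ± 0.22 in hESCs and 3.49 ± 0.35 in mESCs (mean and SD over 3 passages), or 11.7-fold and 11.2-fold. This was the widest gap of the 6 pairs in both cell types. CMV-4 exceeded CMV-2 by 6.82-fold in hESCs and 5.42-fold in mESCs, and over CMV-3 it was 2.02-fold and 3.02-fold higher. CMV-1 was 1.72-fold above CMV-4 in hESCs and 2.07-fold in mESCs. All 6 pairs had the same direction in 3 of 3 passages of each cell type and in each of the 9 hESC libraries. Without passage 1 the hESC log2 ratios of CMV-1 to CMV-2, CMV-3 and CMV-4 were 3.67, 1.75 and 0.73, those of CMV-2 to CMV-3 and CMV-4 were -1.92 and -2.94, and that of CMV-3 to CMV-4 was -1.02. An exact sign-flip test of 3 passages cannot go below p = 0.25 (two-sided), which each pair reached. The DNA counts of the 2 tiles enter each ratio and come from the same single library throughout.

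With all passages, the ratios to CMV-3 were those that moved most between the cell types. CMV-1 was above CMV-3 by a log2 ratio of 1.80 ± 0.08 in hESCs and 2.65 ± 0.40 in mESCs, a difference of 0.85. CMV-2 stood at -1.75 ± 0.30 against CMV-3 in hESCs and -0.84 ± 0.21 in mESCs, a difference of 0.91. CMV-3 against CMV-4 gave -1.02 ± 0.03 and -1.60 ± 0.29, a difference of -0.58. In all 3 pairs the hESC passages did not overlap the mESC passages. How often this holds for pairs of other sequences was not counted, so it is no trait of the tiles. Of single sequences, 25.7% were lower in mESCs without overlap. Without mESC passage 3 the 3 differences were 0.62, 0.87 and -0.41, and CMV-2 against CMV-4 moved by 0.45, more than CMV-3 against CMV-4.

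Of the 3 pairs without CMV-3, CMV-1 against CMV-4 also did not overlap, at 0.78 ± 0.11 in hESCs and 1.05 ± 0.11 in mESCs, a smaller difference of 0.27. CMV-1 against CMV-2 differed by -0.06 and CMV-2 against CMV-4 by 0.33, both with overlapping passages. An exact permutation test of 3 against 3 passages gave p = 0.1 for each of the 4 pairs without overlap, which is the smallest value it can give, and 0.15 after Benjamini-Hochberg adjustment over the 6 pairs. The exact p was 0.8 for CMV-1 against CMV-2 and 0.3 for CMV-2 against CMV-4, so no pair passed at 0.05, which this test cannot reach with 3 against 3 passages. Without hESC passage 1 the differences were 0.90, 1.08 and -0.57 for the 3 pairs with CMV-3, and 0.32, -0.18 and 0.50 for the other 3. The 6 differences share tiles and are not independent.

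Then each tile was compared between mESCs and hESCs. CMV-3 was lower in mESCs by 0.81 on the log2 scale, and the other 3 tiles did not pass the test. In the edgeR fit of 3 against 3 passages, the log2 difference of CMV-3 was -0.81 (SE 0.17, 95% interval -1.16 to -0.45, adjusted p = 7.94e-04). Among all 13469 sequences, 17.6% were called lower and 4.53% higher in mESCs, so that 1 call of 4 tiles is near the background. By value, 7.79% of all sequences had a difference below that of CMV-3. The passages of the cell types did not overlap for CMV-3 (exact permutation p = 0.1, the smallest possible), and this held in the direction of lower mESC values for 25.7% of the sequences.

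The median difference of all sequences was -0.09, and relative to it CMV-3 stood at -0.72. When libraries were scaled by total counts the median of all sequences was 0.08, CMV-3 stood at -0.63, and its distance from the median was -0.71. The split of calls was more even under that scaling, with 1341 sequences higher and 1583 lower in mESCs in place of 610 and 2364. With the median over barcodes in place of their sum and limma as the test, CMV-3 kept its size (-0.82) and missed the threshold (adjusted p = 0.0614). That test called 469 sequences in place of 2974. Without hESC passage 1 the difference was -0.90 (adjusted p = 0.00217, edgeR).

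CMV-1 differed between the cell types by 0.07 (SE 0.22, adjusted p = 0.880), and its 95% interval of -0.39 to 0.53 holds changes in either direction. The difference was -0.13 without mESC passage 3. CMV-2 differed by 0.11 (interval -0.17 to 0.39, adjusted p = 0.648) and CMV-4 by -0.22 (interval -0.62 to 0.17, adjusted p = 0.483). These 3 values do not show that the tiles act alike in the cell types, since each interval includes differences of more than 0.3 on the log2 scale. The DNA count of a tile cancels in this comparison.

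The same contrast was read barcode by barcode. The mean activity in mESCs was below that in hESCs for 56 of the 59 barcodes of CMV-3, and for 25 of them all mESC passages were below all hESC passages. None of its barcodes had all mESC passages above all hESC passages. Of all 145137 kept barcodes in the library, the mESC mean was lower for 59.2%, all mESC passages were below all hESC passages for 15.1%, and all were above for 4.87%. The median barcode had 416 DNA counts over the library and 546 over the CMV tiles, so these shares come from shallower barcodes. For CMV-4 the mESC mean was lower for 43 of 60 barcodes, 10 of them without overlap, and 0 lay higher without overlap. For CMV-1 it was lower for 21 of 57, of which 2 did not overlap, while 1 barcode lay higher without overlap. For CMV-2 it was lower for 29 of 60, with 4 lower and 5 higher without overlap. Without hESC passage 1 the mESC mean was lower for 58, 48, 26 and 25 barcodes of CMV-3, CMV-4, CMV-1 and CMV-2. Those lower without overlap were then 44, 17, 2 and 6, and those higher 0, 1, 1 and 6, where 2 hESC passages in place of 3 make it easier not to overlap. The shares of all kept barcodes were not counted without passage 1, so those given above are no background for these counts. The barcodes of a tile were read in the same libraries, so these counts describe how evenly a shift ran over the barcodes and are no test.

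The median over barcodes of the mESC to hESC ratio was 0.585 for CMV-3, 0.862 for CMV-4, 1.06 for CMV-1 and 1.06 for CMV-2, and 0.539, 0.820, 1.02 and 1.099 without hESC passage 1. The barcode ttcgggcatgc of CMV-3 had activities of 4.68, 6.15 and 5.38 in the hESC passages and of 6.43, 3.36 and 2.72 in the mESC passages. Its highest and its lowest value were thus both from mESCs. The barcode tatctagcggg of the same tile had 0.612, 2.40 and 1.84 in hESCs and 0.0271, 0.394 and 0.682 in mESCs. It had 108 DNA counts and between 1 and 180 RNA counts per passage, so counting error bears on each of these values.

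Barcodes of 1 tile spread widely. The CV of the mean activity over barcodes was 29.9% in hESCs and 32.7% in mESCs for CMV-1, 42.4% and 48.7% for CMV-2, 31.6% and 42.1% for CMV-3, and 35.1% and 40.3% for CMV-4. Without passage 1 the hESC values were 30.4%, 36.5%, 34.2% and 38.4% for CMV-1 to CMV-4. TSS sequences within 1.2-fold of the activity of a tile and with at least 7 kept barcodes had median CVs of 37.7% to 48.3% in hESCs and 42.5% to 57.1% in mESCs. Between 20.4% and 39.8% of them had a lower CV than the tile they were matched to, over the 8 pairs of tile and cell type. The TSS sequences had at most 13 barcodes each, which makes their CVs less precise than those of the tiles.

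In CMV-1 the barcode cgtcgacacca, with 756 DNA counts, reached 13.5, 16.9 and 15.6 in the hESC passages and 25.3, 13.3 and 23.0 in the mESC passages. The barcode acataggtaaa, with 78 DNA counts, had 0.123, 4.37 and 3.47 in hESCs and 1.42, 2.13 and 8.43 in mESCs. Even though it carried the most active tile, this barcode was below the median random sequence in hESC passage 1. In CMV-4 the barcode tagcgttaatg had 9.84, 12.2 and 14.2 in hESCs and 14.5, 8.82 and 9.76 in mESCs. The barcode cgatctctcaa, with 30 DNA counts, had 2.49, 5.51 and 0 in hESCs and 0.292, 1.57 and 0 in mESCs, where 0 means that no RNA read was found.

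In CMV-2 the barcode tattttcgcat, with 1380 DNA counts, had 1.52, 1.15 and 1.47 in hESCs and 0.839, 1.59 and 2.52 in mESCs. The barcode ccgatcgtctc, with 42 DNA counts, had at most 5 RNA counts in any passage and was at 0 in 6 of the 9 hESC libraries. Of the 60 barcodes of CMV-2, 21 were at 0 RNA in at least 1 of the 12 libraries, against 3 of 57 for CMV-1, 3 of 59 for CMV-3 and 2 of 60 for CMV-4. No CMV barcode was at 0 in all 6 passages.

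Most barcodes kept the side of their tile. In every one of the 3420 pairings of a CMV-1 with a CMV-2 barcode the CMV-1 barcode had the higher mean, in hESCs and in mESCs. The same held for all pairings of CMV-4 with CMV-2 in hESCs and for 98.6% in mESCs. CMV-3 exceeded CMV-2 in 99.9% of the pairings in hESCs and in 89.3% in mESCs. CMV-1 exceeded CMV-4 in 86.0% and 90.4% of the pairings, so single barcodes of these tiles often ranked against the tiles. Without passage 1 the hESC shares were 100% for CMV-1 and for CMV-4 over CMV-2, 99.97% for CMV-3 over CMV-2 and 83.7% for CMV-1 over CMV-4.

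The rank of barcodes within a tile was shared between the cell types to different extents. Spearman's rho between the mean activity in hESCs and in mESCs was 0.89 for CMV-1 (57 barcodes), 0.84 for CMV-4 (60), 0.68 for CMV-3 (59) and 0.33 for CMV-2 (60). Without hESC passage 1 it was 0.90, 0.87, 0.67 and 0.27 in the same order. Both means share the DNA count of the barcode as divisor. Between mESC passages rho ran from 0.54 to 0.88 for CMV-1, from 0.49 to 0.61 for CMV-4, from 0.17 to 0.40 for CMV-3 and from 0.13 to 0.24 for CMV-2. Between hESC passages it ran from 0.55 to 0.77, 0.45 to 0.84, 0.40 to 0.80 and 0.21 to 0.47 in the same order, with 0.77, 0.84, 0.80 and 0.21 between passages 2 and 3.

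DNA count and activity of a barcode, which share the DNA count, had a rho of 0.25 in hESCs and 0.27 in mESCs for CMV-1, 0.31 and 0.49 for CMV-2, 0.03 and -0.14 for CMV-3, and 0.14 and 0.08 for CMV-4. Without passage 1 the hESC values were 0.29, 0.20, 0.014 and 0.20 for CMV-1 to CMV-4. The GC content of the barcode, from 18.2% to 81.8%, had rho values between -0.22 and 0.13 with activity over the 4 tiles and 2 cell types.

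Lastly, the tiles were compared in sequence. GC content was 50.7% for CMV-1 and CMV-4, 48.6% for CMV-2 and 47.9% for CMV-3, close to the median of 50% of the random sequences and below the 60.4% of the TSS sequences. CpG dinucleotides numbered 11 in CMV-1, 9 in CMV-4, and 6 in CMV-2 and CMV-3, against a median of 9 in random and 7 in TSS sequences. The tiles with more CpGs were those with the higher activity, a description of 4 sequences of which neighbours overlap.

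11 short motifs were searched on both strands, and a match says only that the letters occur. The CRE (TGACGTCA), bound by CREB and ATF proteins, occurred 2 times in CMV-1, 2 times in CMV-2, 1 time in CMV-4 and not in CMV-3. Of the random sequences 0.185% held it, and of the TSS sequences 1.01%. One of the 2 CREs lies in the 30 bases that CMV-1 and CMV-2 share, at positions 119 to 126 of CMV-1 and 5 to 12 of CMV-2, counted from 1 at the 5′ end of the tile. The most and the least active tile thus held the same number of CREs. CMV-3, the tile that was called lower in mESCs, was the tile without this motif and without its core TGACG. A link between these letters and the difference between the cell types was not tested. The core was counted 5 times in CMV-1, 5 times in CMV-2 and 3 times in CMV-4, those within CREs included. TGACG was present in 23.5% of random and 13.5% of TSS sequences.

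The kappa B letters GGACTTTCC, bound by NF-kappa B proteins, occurred 1 time each in CMV-1 (positions 108 to 116), CMV-3 (31 to 39) and CMV-4 (85 to 93), and not in CMV-2. They were in 0.185% of random and 0.251% of TSS sequences. The 3 tiles with these letters were those called above the median random sequence. The GC box (GGGCGG), bound by SP proteins, occurred 2 times each in CMV-1 and CMV-4 and in neither of the others, and was in 6.67% of random and 33.5% of TSS sequences. The CCAAT box (CCAAT) occurred 1 time, in CMV-1, and was in 22.5% of random and 19.0% of TSS sequences.

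The AP-1 motif TGANTCA occurred in the 30 bases that CMV-3 and CMV-4 share, and the nuclear receptor motif AGGTCA in those that CMV-2 and CMV-3 share. They were in 3.52% and 6.61% of random sequences and in 4.33% and 6.05% of TSS sequences. A TATA box (TATANAA), an ETS motif (CCGGAAG), an E-box (CACGTG) and a YY1 motif (CCATNTT) were found in none of the tiles, and in 6.11%, 1.54%, 3.21% and 5.50% of random and 2.59%, 5.68%, 3.86% and 6.92% of TSS sequences. The matches that overlapped one another were those of TGACG within CREs.

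Among TSS sequences, the 117 with a CRE reached medians of 6.12 (hESCs) and 4.92 (mESCs), against 1.41 and 1.26 for those without. The 32 with the kappa B letters had medians of 1.31 and 1.13, against 1.41 and 1.26. The quartiles of the TSS sequences with a CRE were 2.98 and 11.8 in hESCs and 1.78 and 11.7 in mESCs. By the mean over passages, CMV-2, with 2 CREs, was below the lower quartile in both cell types. CMV-1 and CMV-4, which also hold CREs, lay between the quartiles in both. CMV-1, CMV-3 and CMV-4, with the kappa B letters, were above the upper quartile of the TSS sequences that hold them, 2.39 in hESCs and 1.53 in mESCs. TSS sequences with and without a motif were not matched for GC or CpG content. The part of either motif in the activity of a tile or of a TSS sequence was not tested.

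Genes of factors known to bind the CMV enhancer were expressed in both cell types, given as TPM, with no test across species. CREB1 was at 15.9, 10.8 and 35.5 TPM in hESC passages 1, 2 and 3 and Creb1 at 11.2, 14.9 and 15.6 in mESC passages. Passage 3 of the hESCs was also highest, and passage 2 lowest, for ATF1, ATF2, CREM, SP1, SP3, YY1 and REL. This order did not hold for NFKB1, RELA and SRF. The mean TPM of ATF1 was 29.4 ± 14.2 for hESCs and 54.6 ± 6.2 for mESCs, and that of ATF2 was 18.9 ± 14.6 and 17.8 ± 2.1 (SD over 3 passages). CREM, whose gene also gives repressor forms, was at 12.2 ± 2.8 and 3.86 ± 0.87.

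Of the NF-kappa B genes, RELA was at 22.9 ± 3.7 TPM in hESCs and 36.4 ± 4.6 in mESCs, and NFKB1 at 8.44 ± 0.54 and 17.9 ± 3.7. REL was at 0.593, 0.218 and 1.65 in the hESC passages and 3.93, 5.58 and 6.23 in the mESC passages. All 3 were higher in each mESC passage than in each hESC passage. ATF1 and SP1 were too, while CREM and SRF were lower in each mESC passage. How many of all genes differ in this way was not counted, so it is no trait of the NF-kappa B genes. SP1 was at 50.9 ± 9.2 and 85.3 ± 7.6, SP3 at 26.4 ± 17.6 and 57.7 ± 11.8, and YY1, which can activate or repress, at 70.1 ± 11.4 and 72.5 ± 3.7. SRF, a factor of serum response elements, was at 151 ± 21 in hESCs and 18.2 ± 0.22 in mESCs.

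Markers of other cells were read from the same libraries. Of 5 fibroblast or feeder markers 3 were over 1 TPM in hESCs, with a summed level of 458 to 640 TPM, against 1.66 to 2.60 TPM and 1 marker in mESCs. THY1, which human pluripotent cells are also known to carry, made up 344 to 525 TPM of it, COL1A1 57.4 to 86.6, COL3A1 at most 0.0655, and LUM was at 0. Of 5 markers of differentiated cells 1 was over 1 TPM in each cell type, with sums of 5.91 to 10.2 TPM in hESCs and 5.50 to 6.42 in mESCs. The summed fibroblast or feeder level was higher in hESCs, as the activity of CMV-3 was, and its part in that difference was not tested.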

How the data were processed

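The authors trimmed reads with cutadapt, matched each barcode and 10 constant bases beside it exactly, and deposited raw read counts per barcode, without molecular identifiers. The authors aligned RNA-seq reads with HISAT2 and deposited counts per gene from featureCounts 2.0.0, without strand. The mouse headers name mm9 and the methods mm10. For cutadapt and HISAT2 the sources used here give no version. The study used MPRAnalyze, which was not used here.

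Transfections of a passage were summed. Barcodes under 10 DNA counts and sequences with under 50% of their barcodes were left out. RNA counts per sequence were fitted over all sequences with edgeR 4.0.16 (quasi-likelihood, robust), with the DNA count and the median random ratio of the library as offset, and adjusted by Benjamini-Hochberg at 0.05. DESeq2 1.42.0 and limma 3.58.1 were alternatives, 20 being planned and 3 added after seeing the data. TPM came from gene counts and lengths, in transfected cells only; untransfected libraries were not used. Total reads per library limit precision as given with the results, and intervals cover neither DNA error nor amplification. Tiles, motifs, gene lists and the rule for named barcodes (highest and lowest mean log2 activity over 6 passages with 1 RNA count added) were chosen with earlier results of these data known. CMV sequences are not printed.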

Additional observations from a re-analysis of the deposited data

Results flagged for a closer look

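The difference of CMV-3 between the cell types was singled out because its edgeR test passed, with a log2 difference of -0.81 (mESC minus hESC) and the same direction in all 9 pairings of a mESC with a hESC passage. Barcodes outside the index were flagged because their pooled ratio was above the median random sequence. The paper states that the library also held sequences of another project, which it left unanalysed. Of 58627 such barcodes, 53089 had at least 10 DNA counts. Their summed RNA over DNA relative to the median random sequence had a mean of 1.63 over the hESC passages and 1.49 over the mESC passages, above the median random sequence in each of the 6 passages. This sets a pool of barcodes against a median, which the mean random sequence exceeds too. In hESCs 10% of the random sequences had a mean activity above 1.64, and in mESCs above 1.61. The median such barcode stood at 1.097 to 1.162 times the median random barcode. The sequence that each of these barcodes carries is not known here, and they entered no comparison. Over the 9 hESC libraries no tile had a value that stood apart by Dixon's test. It looks at single values, so it cannot flag the 3 libraries of passage 1 together. The mESC libraries were not tested in this way.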

How the results depend on the processing

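The call of CMV-3 passed under edgeR with each scaling, DESeq2, each barcode filter, 1 transfection per hESC passage and each passage left out, with log2 differences from -0.90 to -0.63. It missed the threshold with the median over barcodes and limma, at -0.82. CMV-1, CMV-2 and CMV-4 passed under none of these. Leaving out 1 passage at a time, the difference ranged from -0.13 to 0.17 for CMV-1, from 0.04 to 0.18 for CMV-2, from -0.90 to -0.72 for CMV-3 and from -0.34 to -0.11 for CMV-4, and CMV-2 against the random sequences in mESCs ranged from -0.079 to 0.041. The sequences called between cell types numbered 2974, and 469 with the median over barcodes and limma.

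Deviations of same-numbered passages of the cell types correlated at 0.0281, 0.0228 and 0.027. Passages of unlike numbers gave -0.0327 to 0.0145, all lower, so the numbers pair the passages weakly at most. With the number as a replicate block 3327 sequences were called and CMV-3 stood at -0.80 (adjusted p = 1.66e-06, edgeR). The block changed no call of a tile.

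Scaled by total counts (share of RNA reads over share of DNA reads), the activities of CMV-1 to CMV-4 were 4.14, 0.355, 1.19 and 2.41 in hESCs and 4.82, 0.430, 0.772 and 2.32 in mESCs, in the same order of tiles. Relative to the mean random sequence CMV-1, CMV-2 and CMV-3 were at 9.33, 0.796 and 2.70 in hESCs, and CMV-2 and CMV-3 at 0.896 and 1.60 in mESCs. With the median over barcodes CMV-1 was at 11.7 in hESCs. The filters on DNA counts moved no activity by more than 0.389%. The split of calls into higher and lower in mESCs was 1087 and 1874 with TMM scaling, and 1352 and 1900 with DESeq2. Random sequences had 3 barcodes each and tiles 57 to 60, so depth limits a single random sequence more than a tile.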
